A study of Mus musculus with 6 samples.

Results

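Extracellular matrix genes were followed in retinas of newborn mice with and without cyclin D1. The set was a list of 50 genes for collagens, laminins, other matrix proteins and the enzymes that process them. Membership of the list goes by gene name and uses no measured value, but the list was drawn up with earlier results of these data known. Of the 50, 49 had a probe set with a single gene symbol on the array, out of 18193 genes named in all, and Fbn1 was not analysed here. A gene with several probe sets was represented by the brightest of them on average.

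The samples were pools of retinas dissected from wildtype neonates (3 pools) and from Cyclin D1 -/- neonates (3 pools), both taken at birth. An Affymetrix expression array was run for each pool. Cyclin D1, encoded by Ccnd1, is the subunit that activates Cdk4 and Cdk6 as cells leave G1. The labels name no other allele or agent, no strain, and neither the number of animals nor the litters in a pool, so a p-value here reflects only how much these pools differ, which may be technical. Pools of whole dissected retina hold all cell types that come with the tissue, and a change in the number of cells of a type cannot be told apart from a change in RNA per cell.

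The matrix around cells comes in a few well-known forms. Interstitial matrix is built on fibrils of collagens I, III and V with collagens VI and XII and small proteoglycans along them, and is made mainly by fibroblast-like mesenchymal cells. Basement membranes are thin sheets of laminin and collagen IV networks joined by nidogens, perlecan and agrin. In the eye they include the inner limiting membrane of the retina, the walls of its vessels, Bruch's membrane and the lens capsule. The vitreous body contains cartilage-type fibrils of collagens II, IX and XI.

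Levels below are log2 of the quantile-normalised intensity plus 16, with n = 3 pools per genotype, and differences are knockout minus wildtype. They do not rank genes by abundance, since probe sets differ in brightness. Ccnd1 itself ran from 12.35 to 12.56 in the wildtype pools and from 8.81 to 8.92 in the knockout pools, so all 6 arrays lay on the side of their label. The median deposited intensity of an array was 40.6 to 50.5. Precision is limited by having 6 arrays. All 16 neural retina markers with a probe set were bright enough to test, and their summed signal was 0.170% to 0.173% of all signal in wildtype and 0.176% to 0.180% in knockout pools. Among them Rbpms, a ganglion cell gene, was called higher, and Ptf1a and Sox2, transcription factors of amacrine and horizontal precursors and of progenitors, were called lower, with log2 differences from -2.40 to 1.00 over the 16. Pools 1 and 2 of a genotype resembled each other more than other pairs did (SD of the log2 difference 0.22 for wildtype and 0.21 for knockout, against 0.28 to 0.52 for every other pair). The arrays were ranked by the mean log2 signal of their hybridisation controls and divided into the brighter 3 (knockout pools 1 and 2 and wildtype pool 3, 9.82 to 10.15) and the dimmer 3 (9.53 to 9.66). This is a division by rank, since the gap between the sets was narrower than the widest gap inside the brighter one. Values within these 2 sets of arrays are therefore given beside the results. Each of them rests on a single pool of one genotype.

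Of 39 tested matrix genes, 10 rose in cyclin D1 knockout retinas, none fell and 29 had no call (limma, adjusted p under 0.1). The 10 were Sparc, Col18a1, Nid1, Col4a1, Col4a2, Fbn2, Col11a1, Col1a1, Pcolce and Mmp14, with rises of 1.48-fold to 4.76-fold. Across all 10916 tested genes, 2.03% were called higher and 2.63% lower. At an unadjusted p under 0.05, 21 members were higher and 1, Fn1, was lower. Of all 10916 tested genes, 729 were higher and 747 lower at that threshold. The median log2 difference was 0.40 over the tested members and 0.02 over all tested genes. In 18 of the 39 all knockout pools lay above all wildtype pools, as they did in 10.5% of all tested genes.

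The test left out the dimmest genes, and 6 of the 39 tested members (Col1a1, Col11a1, Nid1, Dcn, Bgn and Postn) had a wildtype mean under the limit of 6.21 and so passed through their knockout level. Tnc went the other way. Its wildtype mean of 6.48 was above the limit, and it was left out through its knockout mean of 5.92. Over all 49 members, dim ones included, 43 had a higher knockout mean, as had 9671 of all 18193 named genes. The members' median log2 difference was 0.38, and their groups lay apart upward in 20 (against 8.43% of all named genes). With no filter, 7 of 49 members were called higher and none lower, all 7 among the 10. The summed signal of all members was 0.0886% to 0.0915% of all signal in the wildtype pools and 0.128% to 0.172% in the knockout pools. The count changed with the pools used, and so did the share of all tested genes called higher. Without knockout pool 1 or without knockout pool 2 the count was 3 (Sparc, Col4a1 and Col4a2), and the share was 0.632% and 0.623%. The differences of Col18a1 (1.58 and 1.49), Nid1 (1.36 and 1.29) and Fbn2 (1.05 in both) stayed near their main values there. Without wildtype pool 3 the count was 18 and the share 7.91%, and Tnc was also called lower. When the alike pools 1 and 2 were averaged within each genotype, Sparc alone kept its call (adjusted p = 0.0282).

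**Figure D1:**
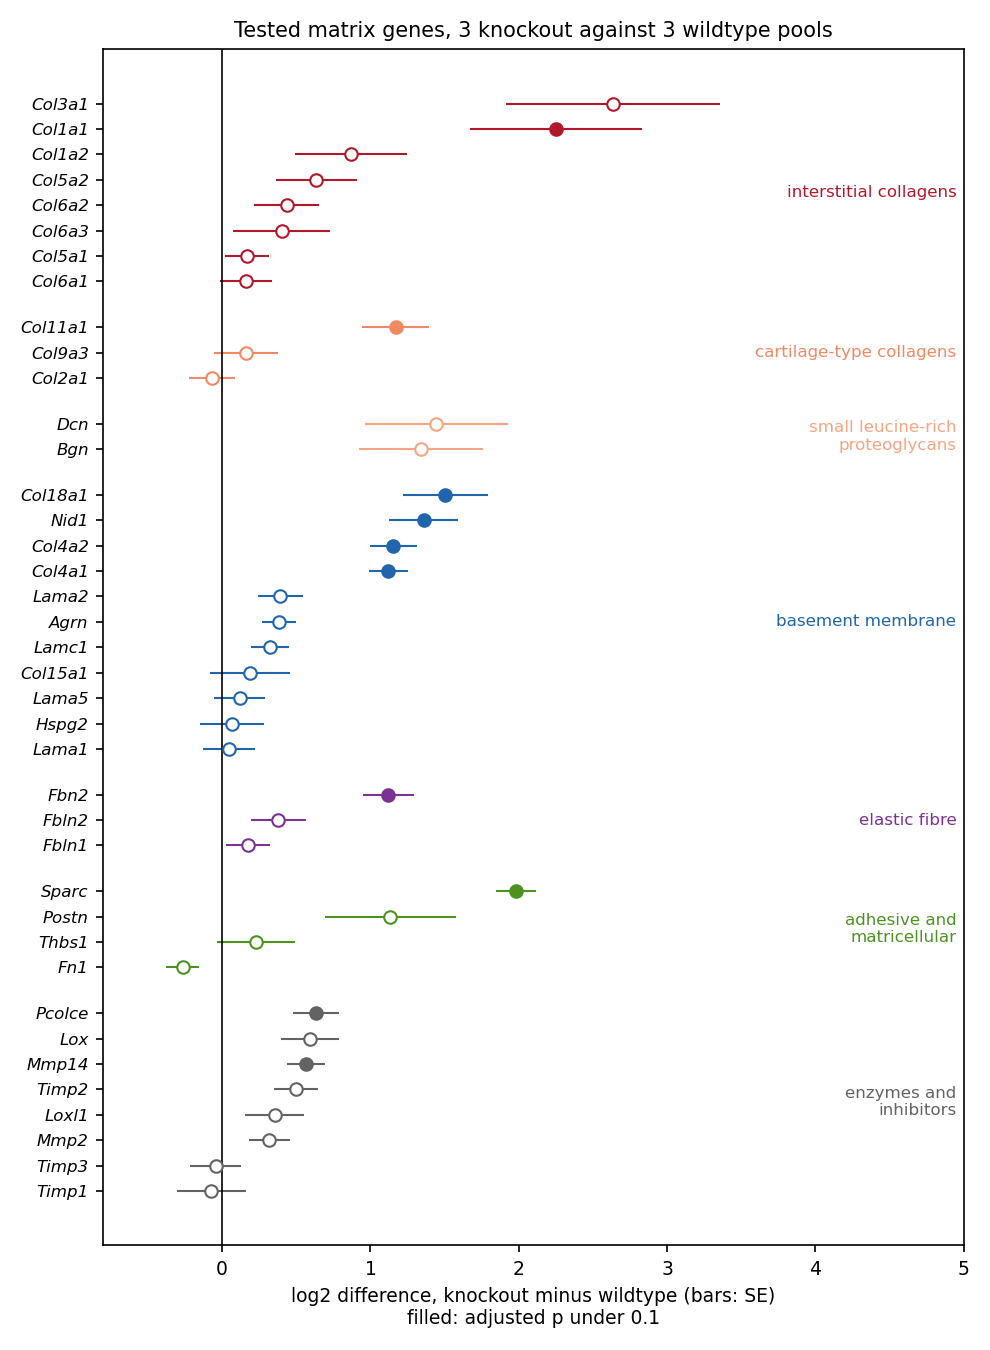
Log2 difference, knockout minus wildtype, for the 39 tested matrix genes, grouped by role, with the standard error from limma as bars and filled points for an adjusted p under 0.1. Of the filled points, 4 lie in the basement membrane group, and the widest bars belong to Col3a1 and Col1a1.

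Sparc, a secreted collagen-binding glycoprotein that is needed to lay down collagen IV in basement membranes, had the smallest p of the members. Its level was 8.30, 8.63 and 8.11 in wildtype pools 1 to 3 and 10.26, 10.43 and 10.29 in knockout pools 1 to 3. The knockout pools lay close together and far above the wildtype pools. The rise was 3.95-fold (log2 difference 1.98, SE 0.14, limma adjusted p = 0.000996). It was 2.24 within the arrays with brighter controls and 1.83 within those with dimmer controls, and Sparc kept its call in all 18 alternatives tested. A second bright Sparc probe set differed by 2.11.

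The main pair of collagen IV chains rose. Col4a1 and Col4a2 encode the chains that form the ubiquitous collagen IV network of basement membranes. Col4a1 was at 8.22, 8.23 and 7.86 in the wildtype pools and at 9.29, 9.29 and 9.09 in the knockout pools, which is 2.17-fold higher by a log2 difference of 1.12 (SE 0.13, limma adjusted p = 0.00484). Col4a2 was at 7.0, 7.15 and 6.62 against 8.06, 8.12 and 8.06, which is 2.23-fold higher by 1.16 on the log2 scale (SE 0.16, limma adjusted p = 0.00802). For both genes the knockout pools were alike and the groups did not overlap. Within the sets of arrays, brighter controls first, the difference was 1.43 and 0.86 for Col4a1 and 1.47 and 0.99 for Col4a2. Both lost their call only with pools 1 and 2 averaged (adjusted p = 0.130 and 0.172). In the RefSeq promoter table (GRCm38.p6) these genes lie head to head on chromosome 8, Col4a1 on the minus and Col4a2 on the plus strand. Their annotated starts are 21 bases apart, and the windows from 250 bases before to 50 bases after each start share 78 bases.

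Other basement membrane genes rose as well, and none of the tested laminin chains was called. Col18a1 encodes collagen XVIII, a proteoglycan of the inner limiting membrane and the source of endostatin. It was at 7.45, 7.64 and 6.44 in the wildtype and 8.53, 8.71 and 8.81 in the knockout pools, higher by 1.51 on the log2 scale or 2.84-fold (SE 0.29, limma adjusted p = 0.0335). Wildtype pool 3 was the lowest of the wildtype pools by far, and the difference was 2.18 and 1.27 within the sets. Nid1 encodes nidogen 1, the link between laminin and collagen IV. It was at 6.09, 6.04 and 5.25 against 7.16, 7.29 and 7.01, higher by 1.36 on the log2 scale or 2.56-fold (SE 0.24, limma adjusted p = 0.0227). Wildtype pool 3 was again lowest, and the difference was 1.97 and 0.95 within the sets. Nid1 passed the brightness limit only through its knockout level, and with no filter it kept its call (limma adjusted p = 0.0474). The calls of Col18a1 and Nid1 ended without knockout pool 1 (adjusted p = 0.120 and 0.115) and without knockout pool 2 (0.148 and 0.130), and that of Col18a1 also ended without knockout pool 3 (0.127).

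Of the 11 tested basement membrane members, 4 rose, 7 had no call and all 11 had a higher knockout mean, with a median log2 difference of 0.38. Agrn, encoding agrin, differed by 0.38 (adjusted p = 0.15), Lama2 by 0.39 (adjusted p = 0.298) and Lamc1, the gamma chain of most laminins, by 0.32 (adjusted p = 0.313), each with groups that did not overlap. Lama1 and Lama5, alpha chains of embryonic and mature basement membranes, differed by 0.04 and 0.12, and Hspg2, encoding perlecan, by 0.07. Col15a1, encoding collagen XV, differed by 0.19. Lamb1, Lamb2, Lama4 and Nid2 were too dim to test, with levels between 5.05 and 6.23 over all pools. Col4a1, Col4a2 and Nid1 were called higher and no tested laminin chain was. The other collagen IV chains, which are not members and were looked up after the values were seen, had no call either. Col4a5 differed by 0.44 (adjusted p = 0.669) and Col4a6 by 0.11 (adjusted p = 0.953) in the probe sets used. The other probe set of each, not tested here, differed by more, by 1.04 for Col4a5 and 0.52 for Col4a6. Col4a3 and Col4a4 were too dim to test. Whether the collagen IV and laminin genes differ from each other in their change was not tested.

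Col3a1 and Col1a1 had the largest log2 differences of the tested members and also varied widely among the knockout pools, and only Col1a1 was called. Col1a1, which encodes the main chain of collagen I, was at 6.06, 6.01 and 5.28 in the wildtype pools. It was at 8.69 and 8.88 in knockout pools 1 and 2 but at 6.53 in knockout pool 3. The rise was 4.76-fold (log2 difference 2.25, SE 0.58, limma adjusted p = 0.0997), just inside the threshold. Col1a1 passed the brightness limit only through its knockout level, and with no filter it had no call (adjusted p = 0.169). The call was lost in 10 of 17 alternatives, among them without knockout pool 1 or 2 and without wildtype pool 1 or 2, and the difference was 3.51 and 0.49 within the sets of arrays, brighter controls first. The other Col1a1 probe set differed by 2.62, with knockout pool 3 again far below the other knockout pools.

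Col3a1, which encodes the chain of collagen III, was at 6.80, 7.14 and 5.27 in the wildtype pools and at 9.71, 10.01 and 7.41 in the knockout pools. Its log2 difference of 2.64 (SE 0.72) was the largest of the tested members and missed the threshold (limma adjusted p = 0.120). The groups did not overlap, but knockout pool 3 was near the highest wildtype pool and 2.45 below the mean of the other knockout pools. Within the sets the difference was 4.59 and 0.43.

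Col1a2, the second chain of collagen I, gave different answers from its 2 bright probe sets. The brighter one read 7.29, 7.31 and 8.20 in the wildtype and 8.81, 8.97 and 7.62 in the knockout pools, with overlapping groups (log2 difference 0.87, adjusted p = 0.377). The other read 6.14, 6.20 and 5.39 against 8.29, 8.36 and 6.52, a difference of 1.81 with groups apart. They disagreed on wildtype pool 3, which was the highest wildtype pool in the first and the lowest in the second. In the second, as for Col1a1, knockout pool 3 was well below the other knockout pools. Col5a1, a chain of the collagen V that nucleates fibrils, likewise differed by 0.17 in the probe set used and by 0.96 in another, where the groups lay apart.

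The remaining interstitial collagens had no call, and in the probe sets used their groups overlapped. Col5a2 was at 6.84, 6.84 and 7.0 in the wildtype and 7.88, 7.86 and 6.84 in the knockout pools (adjusted p = 0.364), so knockout pool 3 was level with the lowest wildtype pools. Its other bright probe set differed by 0.57 with groups apart, at 6.07, 5.98 and 5.74 against 6.56, 6.62 and 6.32. Col6a1, Col6a2 and Col6a3, the chains of beaded collagen VI filaments, differed by 0.16, 0.44 and 0.40 (adjusted p = 0.479 to 0.858). In all 8 tested interstitial collagens knockout pool 3 was below the mean of knockout pools 1 and 2, by 0.17 to 2.45 with a median of 0.95.

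Small leucine-rich proteoglycans, which bind collagen fibrils and set their width, were also lowest in knockout pool 3 among the knockout pools. Bgn, encoding biglycan, was at 6.25, 6.55 and 5.15 in the wildtype and at 7.65, 7.73 and 6.59 in the knockout pools (log2 difference 1.34, SE 0.42, limma adjusted p = 0.178). Its groups did not overlap, with knockout pool 3 close to the highest wildtype pool. Dcn, encoding decorin, was at 6.05, 6.07 and 5.02 against 7.78, 7.65 and 6.05, and its groups overlapped (log2 difference 1.44, adjusted p = 0.214). Lum, encoding lumican, was too dim to test, at 5.48 to 6.12 in the wildtype and 5.74 to 6.83 in the knockout pools. Postn, encoding periostin, a protein of collagen-rich tissues, was at 6.53, 6.04 and 6.01 against 7.93, 7.86 and 6.17 (adjusted p = 0.302).

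**Figure D2:**
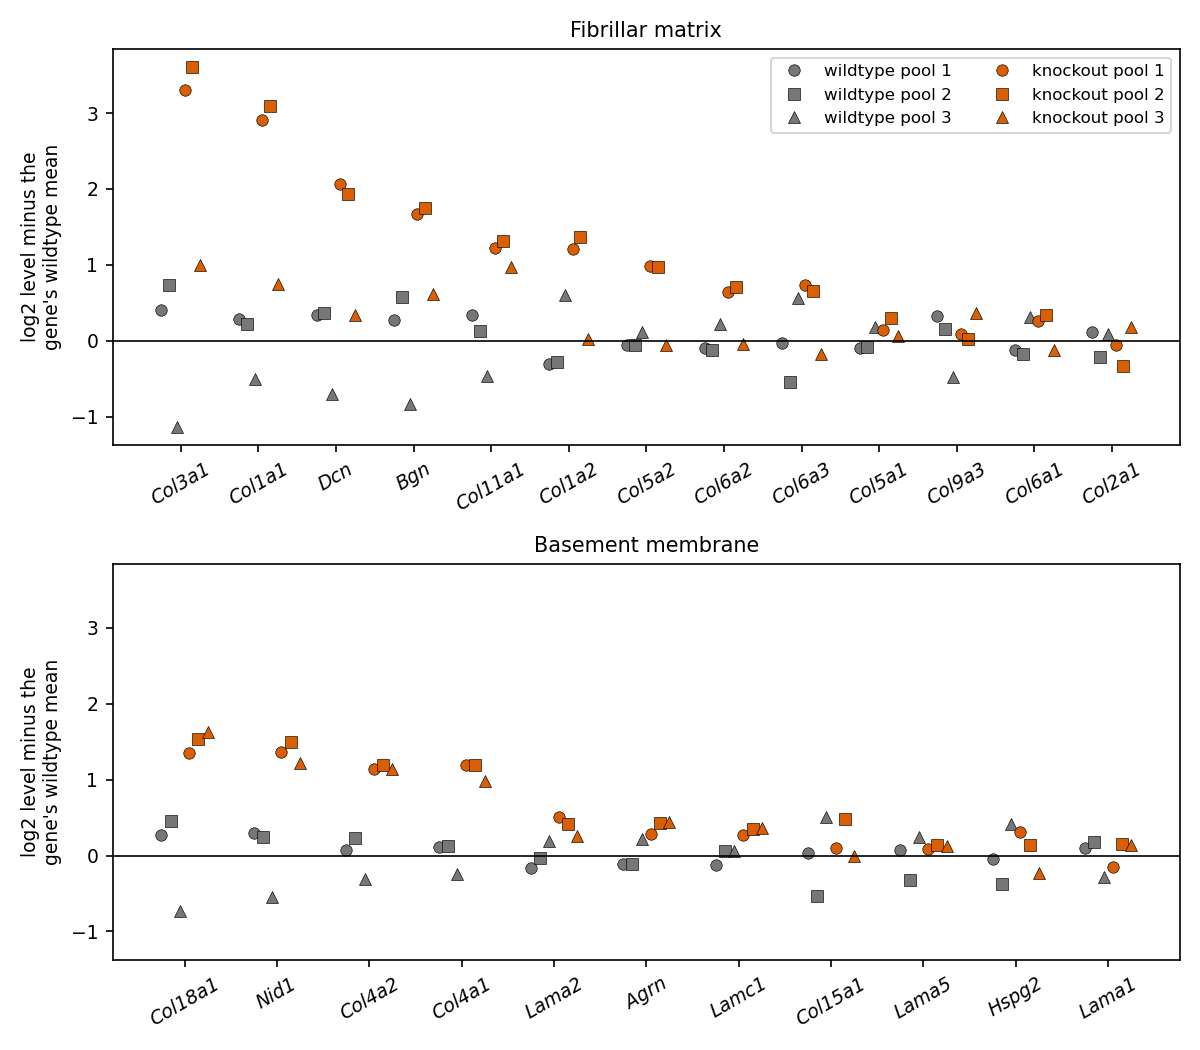
Log2 level of each tested fibrillar matrix gene (top) and basement membrane gene (bottom) in every pool, minus the gene's wildtype mean, with grey wildtype and orange knockout points and a symbol for each pool number. For Col3a1, Col1a1, Dcn and Bgn the orange triangle (knockout pool 3) is far below the other orange points, whereas for Col18a1, Nid1, Col4a2 and Col4a1 the 3 orange points lie together.

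Of the cartilage-type collagens, 1 of 3 tested members rose. Col11a1, a chain of the collagen XI that seeds cartilage and vitreous fibrils, was at 6.08, 5.86 and 5.28 in the wildtype and 6.97, 7.06 and 6.71 in the knockout pools. It rose 2.25-fold (log2 difference 1.17, SE 0.22, limma adjusted p = 0.0339), by 1.73 and 0.74 within the sets, and its knockout pools lay together. Col11a1 passed the brightness limit only through its knockout level. With no filter it kept its call (limma adjusted p = 0.0672), and without knockout pool 1 or 2 it was not among the called members. Col2a1, the chain of collagen II, differed by -0.07 (adjusted p = 0.953) and Col9a3 by 0.16 (adjusted p = 0.893). Col9a2 was too dim to test, at 4.68 to 5.36 in the wildtype and 5.86 to 6.06 in the knockout pools.

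Elastic fibre genes had 1 rise in 3 tested members. Fbn2 encodes fibrillin 2, the microfibril protein that prevails before birth. It was at 6.84, 6.61 and 6.43 in the wildtype and 7.90, 7.88 and 7.46 in the knockout pools, with no overlap. The rise was 2.17-fold (log2 difference 1.12, SE 0.17, limma adjusted p = 0.0148), with differences of 1.46 and 0.74 within the sets and 0.95 in its other bright probe set. The call ended without knockout pool 1 or without knockout pool 2 (adjusted p = 0.102 in both). Fbln1 and Fbln2, encoding fibulins, differed by 0.17 and 0.38 (adjusted p = 0.779 and 0.459), and Fbln5 was too dim to test.

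The adhesive proteins other than Sparc had no call. Fn1, encoding fibronectin, was at 7.84, 7.88 and 8.02 in the wildtype and 7.62, 7.73 and 7.59 in the knockout pools, so all knockout pools were lower (log2 difference -0.27, SE 0.11, limma adjusted p = 0.353). Thbs1, encoding thrombospondin 1, differed by 0.23 (adjusted p = 0.868). Tnc, encoding tenascin C, and Vcan, encoding versican, were just under the brightness limit in their mean over all pools, Tnc only through its knockout level. Tnc read 6.67, 6.67 and 6.08 against 5.99, 6.07 and 5.70, and Vcan's groups overlapped.

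Among enzymes and inhibitors, a procollagen processing factor and a protease rose. Pcolce encodes the enhancer of the protease that trims fibrillar procollagens. It was at 6.72, 6.49 and 6.70 in the wildtype and 7.45, 7.32 and 7.04 in the knockout pools, higher by 0.63 on the log2 scale or 1.55-fold (SE 0.16, limma adjusted p = 0.0854). Mmp14, a membrane-bound protease that cleaves collagen and activates Mmp2, was at 8.0, 7.97 and 7.72 against 8.50, 8.29 and 8.59, higher by 0.56 on the log2 scale or 1.48-fold (SE 0.13, limma adjusted p = 0.0660). Their groups did not overlap, and Pcolce lost its call in 8 of 17 and Mmp14 in 10 of 18 alternatives. Both lost it without any 1 of wildtype pools 1 and 2 and knockout pools 1 and 2, and Mmp14 also without knockout pool 3.

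Lox and Loxl1, which crosslink collagen and elastin, differed by 0.59 and 0.36 (adjusted p = 0.202 and 0.549), Timp2 by 0.50 (adjusted p = 0.157) and Mmp2 by 0.32 (adjusted p = 0.368). The groups of Lox, Timp2 and Mmp2 did not overlap. The metalloproteinase inhibitors Timp1 and Timp3 differed by -0.07 and -0.04 (adjusted p = 0.962 and 0.972). Over the 8 tested genes of this group 2 rose and 6 had no call.

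Fibrillar matrix (the interstitial and cartilage-type collagens with the small proteoglycans) was set against basement membrane. Of 13 tested fibrillar members 2 rose, and of 11 basement membrane members 4 rose. The median log2 difference was 0.63 for the fibrillar and 0.38 for the basement membrane genes. The order of these medians turned between the sets of arrays. With brighter controls they were 0.69 and 0.27, and with dimmer controls 0.14 and 0.39. In knockout pools 1, 2 and 3 the mean level stood above the wildtype mean by 1.17, 1.21 and 0.30 for the fibrillar and by 0.58, 0.68 and 0.55 for the basement membrane genes. The fibrillar minus basement membrane level, set to 0 at its wildtype mean, was 0.06, 0.06 and -0.12 in the wildtype and 0.58, 0.53 and -0.25 in the knockout pools. The knockout pools thus fell on both sides of the wildtype range. The SD of the mean level over the knockout pools was 0.52 for the fibrillar and 0.07 for the basement membrane genes, and over the wildtype pools 0.14 and 0.04. Of the 13 fibrillar members, 4 passed the brightness limit only through their knockout level, and of the 9 with a wildtype mean above it none was called and the median difference was 0.40. Of the basement membrane members 1, Nid1, passed in that way, and of the 10 others 3 were called with a median of 0.35.

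**Figure D3:**
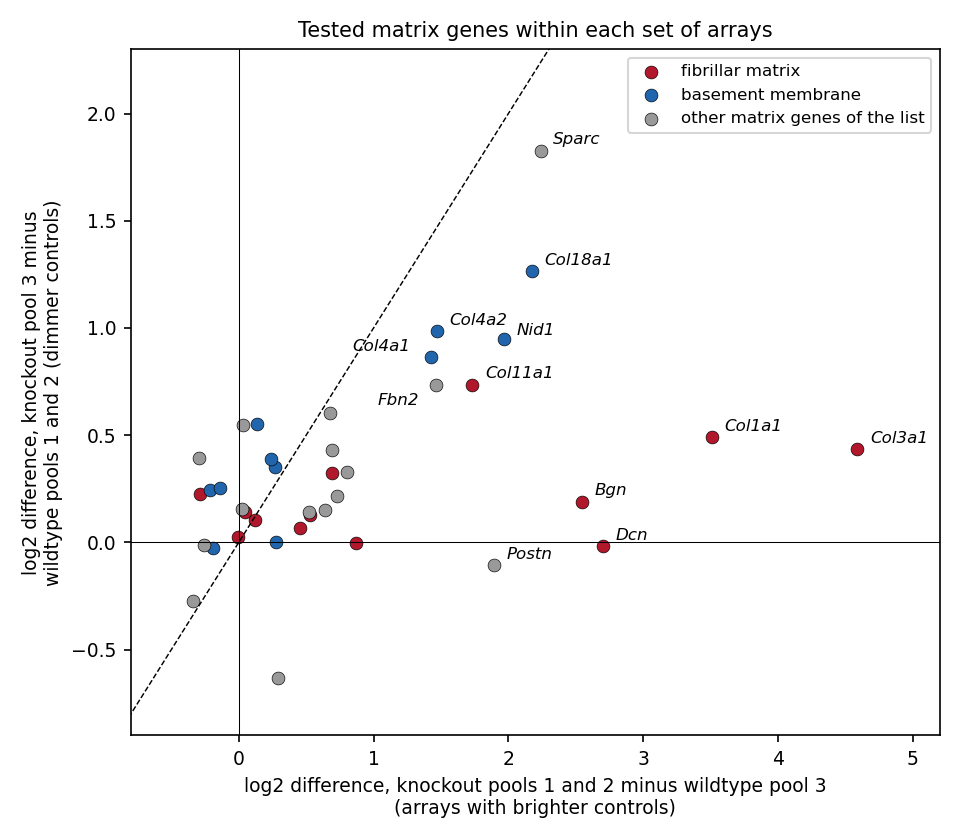
Log2 difference of each tested matrix gene within the arrays with brighter controls (horizontal axis, knockout pools 1 and 2 minus wildtype pool 3) and within those with dimmer controls (vertical axis, knockout pool 3 minus wildtype pools 1 and 2), with a dashed line where both are equal. Col3a1 (4.59 and 0.43), Col1a1, Bgn and Dcn lie far to the right near 0 on the vertical axis, whereas Sparc (2.24 and 1.83) and Col4a2 (1.47 and 0.99) lie nearer the line.

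The 100 bases before the RefSeq start (GRCm38.p6) are shown for members of both patterns, those that were high in all knockout pools (Sparc, Nid1, Col11a1 and Mmp14) and those that were high mainly in knockout pools 1 and 2 (Col1a2 and Col3a1). Capitals mark the GC box GGGCGG and the CCAAT box CCAAT, each on either strand. In Mmp14 a CCAAT box and 2 GC boxes touch or overlap.
Sparc (chr11:55420081-55420180, minus strand): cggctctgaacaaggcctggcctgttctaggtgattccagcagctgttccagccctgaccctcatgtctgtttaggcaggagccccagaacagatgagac
Nid1 (chr13:13437502-13437601, plus strand): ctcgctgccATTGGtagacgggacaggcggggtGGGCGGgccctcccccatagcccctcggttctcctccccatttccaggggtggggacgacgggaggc
Col11a1 (chr3:114030440-114030539, plus strand): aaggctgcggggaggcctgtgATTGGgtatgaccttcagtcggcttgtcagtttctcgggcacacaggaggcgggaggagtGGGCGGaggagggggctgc
Mmp14 (chr14:54431498-54431597, plus strand): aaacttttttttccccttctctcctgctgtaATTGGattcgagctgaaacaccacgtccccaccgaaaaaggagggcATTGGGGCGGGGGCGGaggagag
Col1a2 (chr6:4505518-4505617, plus strand): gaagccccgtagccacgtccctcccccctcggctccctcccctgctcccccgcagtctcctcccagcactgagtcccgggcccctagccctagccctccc
Col3a1 (chr1:45311438-45311537, plus strand): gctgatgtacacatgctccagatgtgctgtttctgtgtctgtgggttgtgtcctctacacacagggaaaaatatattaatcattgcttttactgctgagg

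Nid1 and Col11a1 had 1 GC box and 1 CCAAT box each in this stretch, and Mmp14 had 2 of each. Sparc, Col1a2 and Col3a1 had neither. Of the called members not shown, Pcolce had 1 GC box and no CCAAT box there, and the rest are not given. Whether the patterns differ in these motifs was not tested. No TATA box written as TATAAA was found in these stretches. The table held 40 windows of 300 bases for 33 members. GGGCGG was in 72.5% of the member windows and in 35.7% of all 32851 windows, CCAAT in 32.5% and 37.4%, and TATAAA in 10% and 13.6%.

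Most tested genes that make, modify or bind matrix had no call, and those called all rose. Of 15 tested genes of collagen biosynthesis, 1 rose and none fell. It was Serpinh1, encoding the collagen chaperone of the endoplasmic reticulum, which rose 1.67-fold from 8.65 ± 0.10 to 9.40 ± 0.17 (SD, n = 3, limma adjusted p = 0.0138). Of 13 tested matrix receptors, 2 rose and none fell. These were Itga6, a laminin receptor subunit, which rose 1.73-fold (adjusted p = 0.0778), and the syndecan gene Sdc2, which rose 1.49-fold (adjusted p = 0.0761). Of 30 further matrix genes, 4 rose and none fell. Col9a1, a chain of collagen IX, rose 4.26-fold from 9.42 ± 0.03 to 11.51 ± 0.04 (limma adjusted p = 5.06e-06), with differences of 2.08 and 2.06 within the sets. Ccn2, encoding connective tissue growth factor, rose 3.15-fold (adjusted p = 0.0572), Col23a1 1.78-fold (adjusted p = 0.0223) and the microfibril gene Mfap2 1.26-fold (adjusted p = 0.0871). The medians of these 3 lists were 0.21, 0.24 and 0.14.

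Markers of the other cell types that the dissected tissue could hold moved in different ways. Lens markers, which mark a tissue that makes its own basement membrane, were higher in all knockout pools in 17 of 17 tested genes, and 13 were called. Among them Cryba1 rose from 10.37 ± 0.66 to 12.74 ± 0.49 (SD, n = 3). The summed lens signal was 0.0567% to 0.156% of all signal in the wildtype and 0.435% to 1.12% in the knockout pools. It was highest in knockout pool 3 and lowest in wildtype pool 3, and the mean lens level of knockout pool 3 was 3.18 above the wildtype mean against 1.78 and 1.77 in knockout pools 1 and 2. The interstitial collagens had the opposite order among the knockout pools (0.18 against 1.27 and 1.38), and the basement membrane genes were similar in all of them. Wildtype pool 3 was below the mean of wildtype pools 1 and 2 in all 17 tested lens markers. The same held for 5 basement membrane members, among them Col18a1 (-1.10) and Nid1 (-0.81), whereas 6 were above. Over the 39 tested members 19 were below and 20 above. The part of lens tissue in the matrix differences was not tested.

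Endothelial and pericyte markers had no call in 9 tested genes (limma, adjusted p under 0.1). At an unadjusted p under 0.05, 2 were higher and 1 lower, against 729 and 747 of all 10916 tested genes. The summed signal of these markers was 0.0348% to 0.0361% in the wildtype and 0.0356% to 0.0376% in the knockout pools. Periocular mesenchyme markers, which include factors of the fibroblast-like cells around the eye, had 1 rise in 5 tested genes, Foxd1 (1.53-fold, adjusted p = 0.0251), which also marks the temporal retina. Their summed signal was 0.0142% to 0.0156% against 0.0172% to 0.0183%, and 10 of 15 were too dim to test. Pigment epithelium markers had 1 fall in 9, Pmel (1.43-fold lower, adjusted p = 0.0948), with 0.0230% to 0.0293% against 0.0196% to 0.0208%. Ciliary margin markers had 2 rises in 8, Aldh1a1 (6.87-fold) and Wfdc1 (2.21-fold), with 0.0288% to 0.0333% against 0.0654% to 0.0704%. Of these 8, the groups lay apart upward in 3 and downward in 2, and the median log2 difference was 0.21. Retinal astrocyte markers had 1 rise in 5, Id3 (2.45-fold), with 0.0150% to 0.0249% against 0.0329% to 0.0391%. Id3 had the largest log2 difference of these 5, at 1.30, and their median was 0.31. Red blood cell and microglia markers had no call in 2 and 4 tested genes, of which 1 red blood cell marker was lower at an unadjusted p under 0.05. No marker of these lists was at the floor of the scale in every pool. What part any of these cell types had in the matrix differences was not tested.

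**Figure D4:**
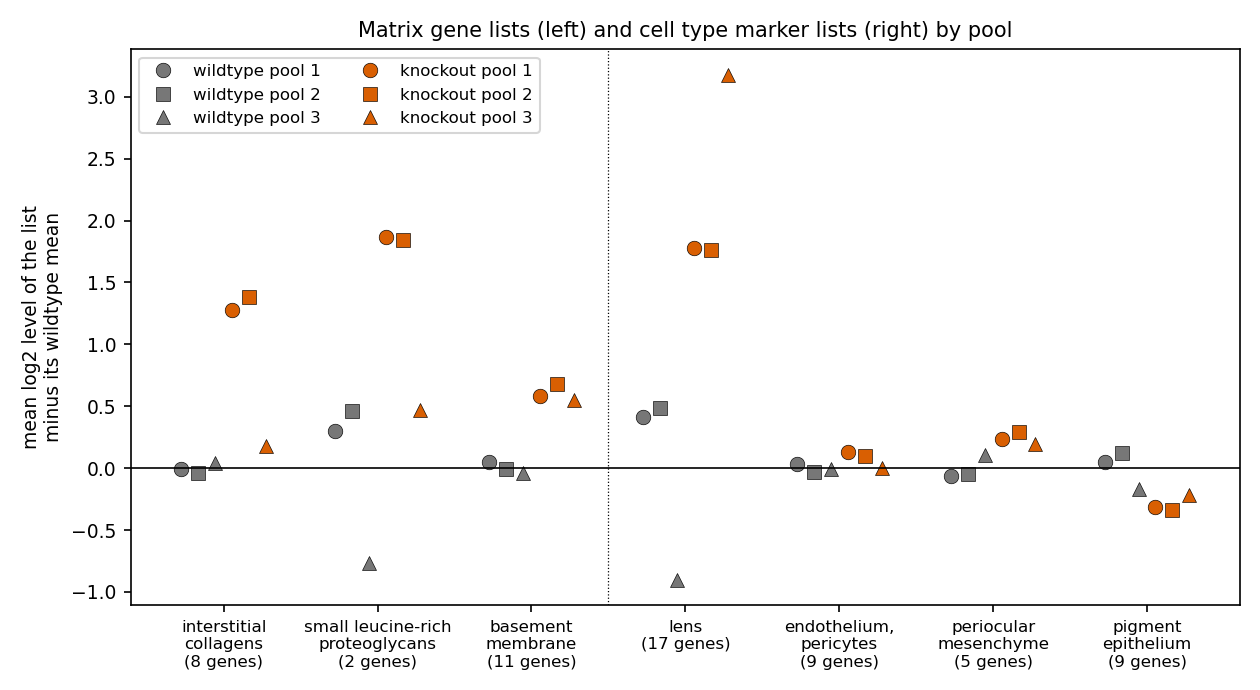
Mean log2 level of the tested genes of each list in every pool, minus the list's wildtype mean, for matrix lists (left of the dotted line) and cell type marker lists (right), with grey wildtype and orange knockout points. Knockout pool 3 (orange triangle) is the lowest knockout pool for interstitial collagens (0.18) and the highest for lens markers (3.18), and basement membrane genes stand at 0.55 to 0.68 in all knockout pools.

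The median SD was 0.18 over the knockout pools and 0.27 over the wildtype pools for the tested members, and 0.12 and 0.20 for all tested genes. By role the median knockout SD was 0.55 for interstitial collagens, 0.80 for the proteoglycans and 0.12 for basement membrane genes. The largest was 1.42, for Col3a1. Across the 57 member probe sets at or above the brightness limit, 52 had a higher knockout mean and 5 a lower one. Counted by gene, 5930 of all 10916 tested genes had a higher knockout mean and 4986 a lower one. Where a called member had 2 bright probe sets (Sparc, Col4a1, Col18a1, Fbn2 and Col1a1), both showed knockout pools above wildtype pools. The 10 members below the limit were Col12a1, Col9a2, Lum, Lama4, Lamb1, Lamb2, Nid2, Fbln5, Vcan and Tnc. Among them Col9a2 and Lamb1 had all knockout pools above the wildtype pools, with differences of 0.90 and 0.38, and Tnc had all of them below, with -0.56.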

How the data were processed

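RNA from 3 wildtype and 3 knockout pools was labelled with biotin and put on 6 arrays, per the labels' protocols. The authors deposited 1 linear intensity per probe set and array; neither the summarising program nor its scaling is stated in the labels, and detection calls were not used. Of 45101 probe sets, 64 controls were left out, 34945 had 1 gene symbol (GEO's platform annotation, 34741 updated through Entrez identifiers with RefSeq names of GRCm38.p6), 932 had several and 9160 were unnamed. Intensities were quantile normalised, floored at 1 and taken to log2(value + 16), which understates changes of dim genes. The probe set with the highest mean stood for each gene, and the dimmest 40% of genes (7277) were not tested. The other 10916 were fitted with limma 3.58.1 (R 4.3.3, lmFit, eBayes with intensity trend, two-sided, Benjamini-Hochberg, threshold 0.1 as in the labels). The fit was tested on simulated data. The members and lists were chosen with earlier results of these data known. Per-pool values are given for every called member and, in a role without one, the tested member with the smallest p; those of the second Col1a2 and Col5a2 probe sets, Col3a1, Col1a2, Col5a2, Dcn, Postn, Fn1 and Tnc were added after the values were seen. Non-members are named only where called, at most 4 per list by smallest p, other than the collagen IV chains. Lists are described by counts and medians, with no list test. The planned protein features were not used. Sets of arrays were ranked on 5 BioB and BioC controls. Alternatives covered scaling, pseudocount, filter, probe set, variance model, threshold, the replicate number or array set as a block, averaged pools and each array left out. Figures used matplotlib 3.10.9.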

Additional observations from a re-analysis of the deposited data

How the results depend on the processing

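Every setting kept the median of the tested matrix genes above 0, from 0.24 to 0.54, and no called member changed direction. The 10 members higher became 6 with the lowest 60% of genes left out and 1 with averaged pools, and 3 to 18 with each array left out, where 0 to 1 were lower. Over all tested genes, 222 higher and 287 lower became 416 and 176 with values as deposited (median of all genes 0.13 against 0.02), 156 and 135 after median centring of each array, 597 and 433 with the array set as a block, 17 and 26 with averaged pools, 127 and 195 at a threshold of 0.05, and 68 to 863 and 103 to 1066 with each array left out. The basement membrane median of 0.38 was 0.48 as deposited, 0.26 with pseudocount 64, 0.32 with no filter, 1.12 with the lowest 60% left out, 0.31 with the mean of all probe sets, 0.32 with the array set as a block or averaged pools, 0.27 within the brighter set, and 0.31 to 0.49 with each array left out. The fibrillar median of 0.63 was 0.14 within the dimmer set, 0.42 with the lowest 60% left out, 0.33 without knockout pool 1, 0.30 without knockout pool 2 and 0.97 without knockout pool 3. Fibrillar minus basement membrane, 0.25, reversed to -0.70 with the lowest 60% left out and to -0.25 within the dimmer set, and ran from -0.064 without knockout pool 2 and -0.018 without knockout pool 1 to 0.61 without knockout pool 3. Where no cause is named it was not tested. With the replicate block, 126 genes were higher and 143 lower, and 10 members were higher, 7 of them among the 10 above. Same-numbered pools deviated together in 1 of 3 pairs (correlations 0.17, -0.35 and -0.48). This cannot show whether the numbers pair the pools, since wildtype pool 3 and knockout pool 3 lay in different sets of arrays. The main fit used no pairing. Signal near background limits the 10 dim members, though the wildtype mean of Tnc was above the brightness limit.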
